A study of Drosophila melanogaster with 76 samples.

Results

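The odorant receptor (Or) and gustatory receptor (Gr) genes of Drosophila melanogaster were examined for binding of ectopic transcription factors in S2 cells, a cultured line with blood cell properties. The set was every protein-coding gene whose symbol begins with Or or Gr followed by a digit, which gave 59 Or and 60 Gr genes, 119 of the 13922 protein-coding genes on the chromosome arms. A gene was counted in a peak list when a summit, the point of highest signal in a called region, lay in the gene span or within 2 kb of either end. The symbols alone chose the genes, and no binding value was used. These genes are as a rule active in sensory neurons and little elsewhere, but expression was not measured in these data and their silence in S2 cells was not tested.

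Chromatin immunoprecipitation and sequencing (ChIP-seq) had been done on 76 libraries. The 31 peak lists used here each pool the 2 libraries of a group, 62 libraries in all, and the other 14 libraries, inputs and IgG controls, were not analysed here. Because a list gives a group a single value, no spread between libraries could be computed and no test between groups was made. Receptor counts of a list therefore have exact Clopper-Pearson 95% intervals, in the text or a figure, which cover counting error only. The intervals treat the genes as independent, although neighbouring receptor genes can share a summit. Counts of summits outside the control regions, defined below, have no interval. The receptor counts stand beside the share of all coding genes counted in the same way.

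Addition of copper sulfate switches on the construct, and cells were harvested 48 h later. Wild-type cells, with no construct, were precipitated with anti-Zld at 1000 µM copper sulfate, with anti-Grh at 100 µM, and with anti-Twi and anti-HA at 40 µM. Cells with the Zelda (Zld) construct were profiled at a single dose of 1000 µM, in a dose series of 0, 500, 1000 and 1500 µM, and at 1000 µM with DMSO or with a treatment named taz in the labels. Cells with the Grainy head (Grh) construct were profiled at a single dose of 100 µM, in a series of 0, 25, 100 and 400 µM, and at 100 µM with DMSO or taz. The untagged Twist (Twi) construct was profiled at 40 µM with anti-Twi, and HA-tagged Twist (HA-Twi) with anti-HA at 0, 10, 40 and 160 µM and at 40 µM with DMSO or taz. Truncated constructs carry the name DBD, taken to mean the DNA-binding domain, and were profiled at 100 and 400 µM for Zld-DBD and at 20 and 80 µM for Grh-DBD, with the lower dose of each profiled in 2 experiments. The constructs are forced expression in a host that is neither an embryo nor a sensory neuron.

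Odorant and gustatory receptors are multi-pass membrane proteins that form ligand-gated ion channels in the dendrites of sensory neurons. An olfactory neuron as a rule expresses a single odorant receptor together with the shared co-receptor Orco, and a gustatory neuron expresses several gustatory receptors for sugars, bitter compounds or carbon dioxide. The choice is made by combinations of transcription factors during development of the antenna, palps and taste organs. Zld opens chromatin as the early embryo begins its own transcription, Grh does so in epithelia, and Twi specifies the mesoderm and belongs to the helix-loop-helix factors.

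The receptor genes are short and often stand in tandem clusters. Their median span was 1444 bp, with a range of 1143 to 7422 bp, against 2163 bp over all coding genes, and 96 of the 119 spanned less than 2 kb. Another receptor gene lay in the window of 46 of them, so neighbours can share a summit, and the windows merged into 88 blocks covering 567.9 kb. Gr10a and Or10a have the same span in the annotation, as do Gr64b and Gr64c, and the members of each such pair cannot be told apart by position. No strand or exon was used, so a summit is placed by its distance to the nearer gene end, and the start of transcription is not distinguished from the end of the gene.

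A summit was found at 44 of the 119 receptor genes (37%) in at least 1 of the 31 lists, against 79.7% of all coding genes. The other 75 genes (63%) had none in any list, where 20.3% of all coding genes had none. Most receptor windows thus held no called summit, while most coding genes had one. Counted by merged block, so that clustered neighbours count once, 38 of 88 blocks (43.2%) held a summit. A share by block was not computed for all coding genes. Inside the gene span itself, only Gr61a, Gr77a, Or59b and Or63a had a summit, 3.36% of the set against 49.9% of all coding genes. Among genes under 2 kb these shares were 2.08% and 28.3%. The span summits of Or59b and Or63a were called in the wild-type anti-Grh list alone, with folds from 1.66 to 1.99. That list holds a region with a fold of 385.9, where the list median is 2.96, and lists 19.8% of the peak numbers up to its highest. The single-dose Zld-DBD list (17.9%) and HA-Twi at 0 µM (16.7%) hold a smaller part of theirs. Without the wild-type anti-Grh list 41 genes had a summit and 2 had one in the span.

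The share of receptor genes was below that of all coding genes in each of the 31 lists, and in 29 of them the upper bound of the interval also lay below it. The exceptions were HA-Twi at 0 µM, where few genes of any kind were called, and the single-dose Zld-DBD list. The latter holds 1302 regions, where the other Zld-DBD list at 100 µM holds 4391. Length is part of this comparison, since a longer span gives a wider window. Among genes under 2 kb the receptors had a summit in any list in 37.5% of cases (36 of 96), against 68.6% of all 6516 coding genes of that size. Per list, the receptors under 2 kb had the lower share in 29 lists. In the HA-Twi list with taz they had 10.4% against 8.43%, and in the single-dose Zld-DBD list 8.33% against 6.84%. The number of summits per Mb of merged window, which does not depend on gene length in this way, was below that of all genes in 30 lists, the single-dose Zld-DBD list again being the exception with 15.8 against 14.9.

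**Figure D1:**
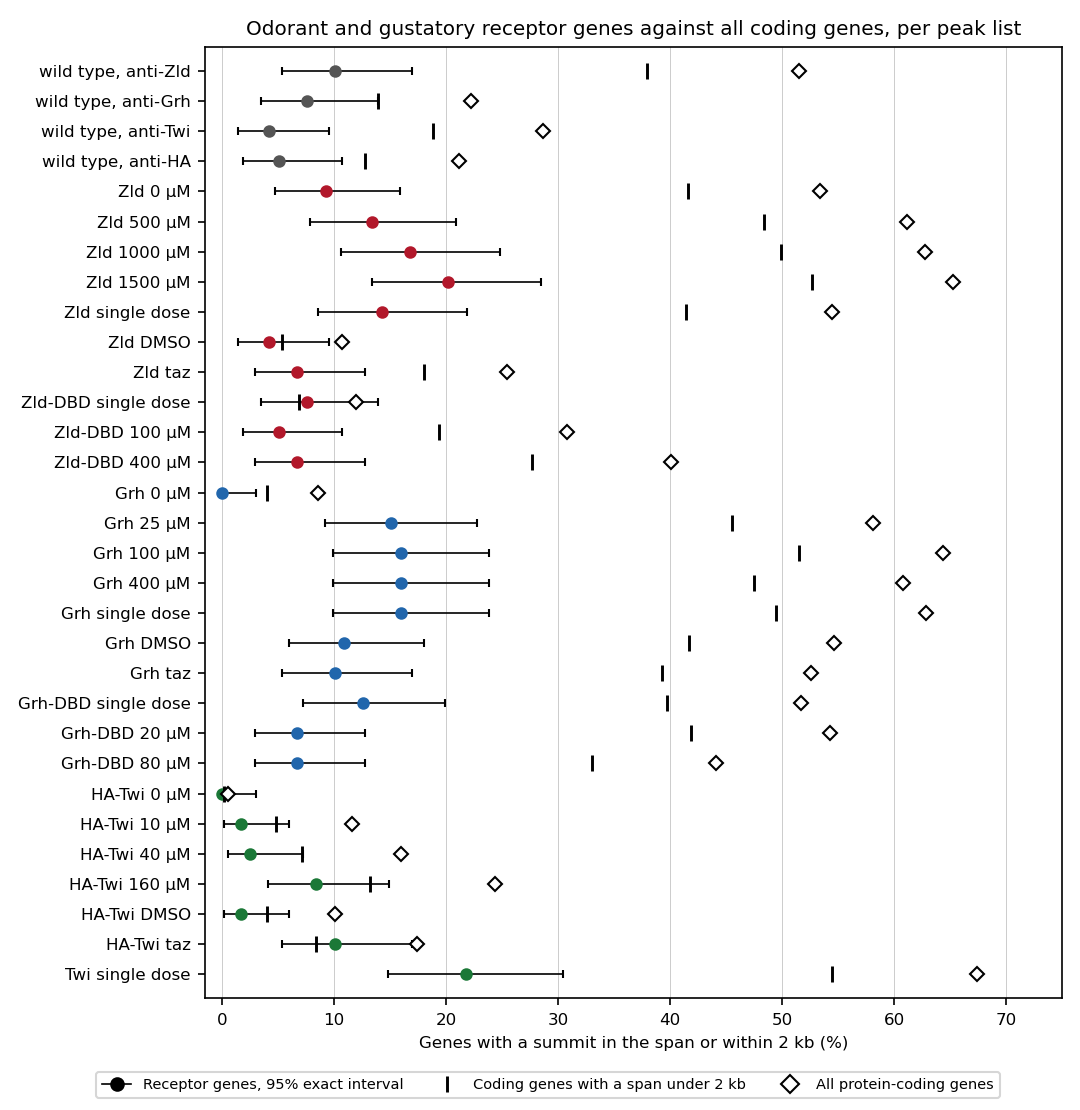
Percentage of genes with a summit in the span or within 2 kb (x axis) in each of the 31 peak lists (y axis). Filled points are the 119 receptor genes with exact 95% intervals, coloured by factor (red Zld, blue Grh, green Twi, grey wild type), vertical ticks are the 6516 coding genes with a span under 2 kb, and open diamonds are all 13922 coding genes, which lie to the right of the receptor genes in every list.

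Neighbouring genes went with the counts. Of the 72 receptor genes with a coding gene of another kind in their window, 36 had a summit (50%), and of the 47 without such a neighbour, 8 had one (17%). Over all coding genes, where any other coding gene counted as a neighbour, these shares were 82.2% and 52.7%. For receptor genes other receptor genes were not counted as neighbours. The 47 thus include genes in clusters, and the sides are not defined alike. For genes under 2 kb with no such neighbour in the window, the receptor share was 18.4% (7 of 38) and that of all coding genes 34.2%. The receptor share was thus the lower of the pair in each of these classes. Gustatory receptor genes had a summit in 26 of 60 cases (43.3%) and odorant receptor genes in 18 of 59 (30.5%), against 79.7% of all coding genes. By chromosome arm the counts were 3 of 27 on 2L, 11 of 28 on 2R, 11 of 22 on 3L, 12 of 28 on 3R and 7 of 14 on X, where the shares of all coding genes were 75%, 80.4%, 81%, 82.8% and 77.5%. The 2 longest genes, Gr28b and Gr39a, had none, whereas 92.6% of all genes over 5 kb had one.

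Most summits near a receptor gene lay at some other gene, but such positions were not counted for all coding genes. Of the 13922 coding genes, 12737 had another coding gene in their window, so the pattern is not shown to be particular to receptor genes. Of the 490 distinct summits in receptor windows, 46.1% lay inside another coding gene, 29.8% within 500 bp of an end of another gene and 20.8% farther away than that. Those in a receptor span alone were 2.24%, and those in a receptor span and another gene at once 1.02%. Of the 44 genes with a summit, 29 had none that was away from other genes in this sense. The remaining 15 were Gr28a, Gr47b, Or45b, Or56a, Or65b, Or67a, Or67c, Gr89a, the 4 genes of the Gr93 cluster, Gr10a and Or10a with their shared span, and Or7a.

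The concentration of summits that other genes have at their ends was not seen at receptor genes. Within 500 bp of a gene end the single-dose Grh list held 5.04 summits per 100 kb for receptor genes and 47.1 for all coding genes. Inside the span these densities were 0.475 and 10.3, and at 5 to 10 kb from the gene 9.92 and 15.1. The Twi list gave 7.56 against 54.3 within 500 bp and 11.2 against 19.2 at 5 to 10 kb, and the single-dose Zld list 5.04 against 43 and 5.38 against 9.89. At receptor genes the density therefore stayed low near the gene and, for Grh and Twi, was highest at the largest distances. HA-Twi at 40 µM, whose summits do not gather at gene ends in general, had none within 1 kb of a receptor gene, and 3.11 against 4.55 per 100 kb at 5 to 10 kb.

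**Figure D2:**
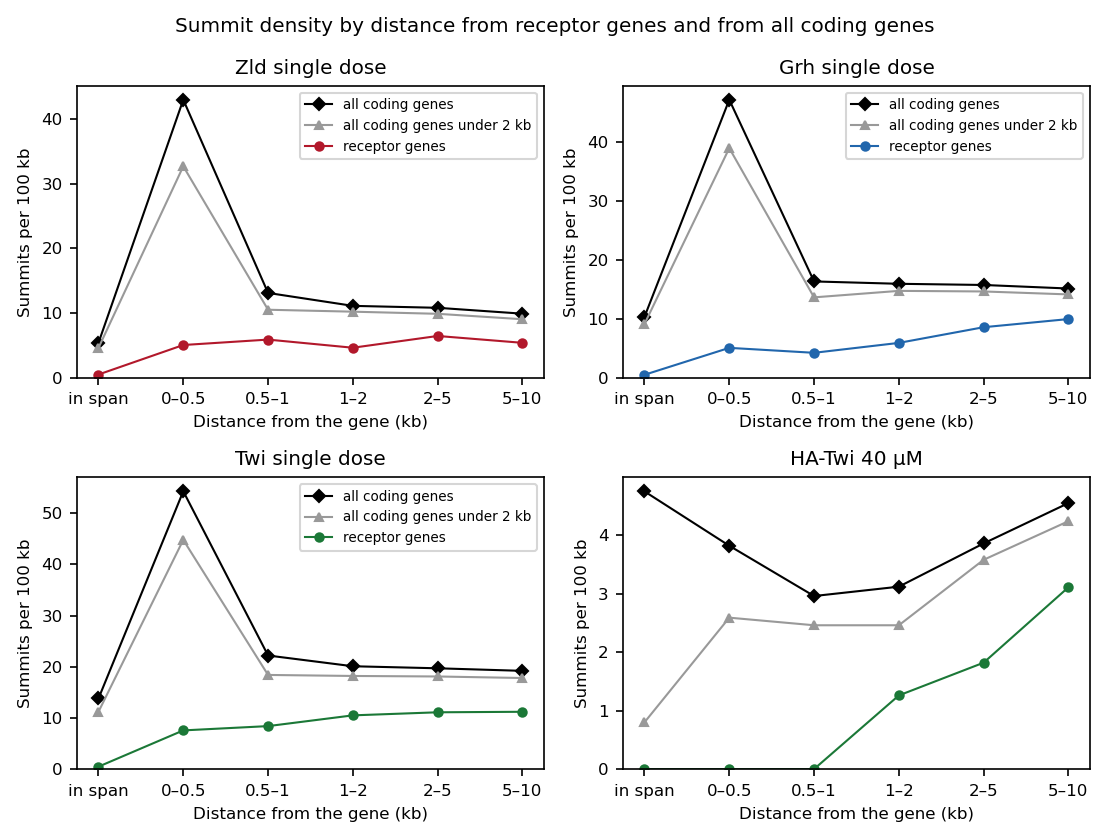
Summits per 100 kb (y axis, a scale of its own in each panel) in the gene span and in bins of distance from it (x axis, kb) for the single-dose Zld, Grh and Twi lists and HA-Twi at 40 µM. Coloured circles are receptor genes, grey triangles coding genes under 2 kb and black diamonds all coding genes; for Zld, Grh and Twi the maximum of 43 to 54.3 within 0.5 kb of all coding genes has no counterpart at receptor genes.

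The nearest summit of any list was at a median of 3306 bp from a receptor gene, against 1 bp for all coding genes and 228 bp for those under 2 kb. For 27 receptor genes (22.7%) it was more than 10 kb away, where 7.09% of all genes were as far. The farthest was Or98a on 3R, 66002 bp from any summit. The bitter-receptor cluster of Gr36a, Gr36b and Gr36c on 2L followed, at 65379, 63236 and 61668 bp, and then Or94a and Or94b on 3R at 54556 and 52491 bp. The Gr22 cluster on 2L, from Gr22a at 34552 bp to Gr22e at 24946 bp, was likewise without a summit nearby. Gr98a (47527 bp), Or69a (38990 bp) and Or45a (36563 bp) lay between these in distance.

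In wild-type cells few receptor genes had a summit. The numbers were 12 with anti-Zld (10.1%, interval 5.32 to 17, against 51.5% of all genes), 9 with anti-Grh (7.56%, 3.52 to 13.9, against 22.2%), 5 with anti-Twi (4.2%, 1.38 to 9.53, against 28.7%) and 6 with anti-HA (5.04%, 1.87 to 10.7, against 21.2%). In all, 18 receptor genes were in at least 1 wild-type list (54.9% of all genes were), and 14 without the anti-Grh list. Gr63a and Or71a were in all 4 (8.9% of all genes were). Gr63a encodes a subunit of the carbon dioxide receptor, and its wild-type summits lay inside the neighbouring gene Fie, with folds of 7.05 (anti-Zld), 2.59 (anti-Grh), 2.31 (anti-Twi) and 4.33 (anti-HA). Or71a is a palp receptor for phenolic compounds, and its summits lay inside Plp, a centrosome gene that overlaps it, with folds of 13.6, 2.98, 2.09 and 2.11 for the same antibodies. The fold is the authors' ratio of precipitated to background signal at the summit, and it ranks summits within a list only.

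Of the 44 receptor genes with a summit, 22 were in a wild-type or 0 µM list and 22 in neither. A summit was next called outside the controls when its region did not overlap the wild-type list of the same antibody or the 0 µM list of the full-length construct. The Twi list has no 0 µM counterpart here, and the domain lists were compared with wild-type cells at another copper dose. The same holds for the induced lists of the Zld, Grh and HA-Twi dose series, except at the dose given to the wild-type cells. By this measure 38 receptor genes had a summit outside the controls in at least 1 of the 24 induced lists (77.2% of all genes had). Among genes under 2 kb, 32.3% of receptors and 65.8% of all coding genes had one. Shares of all genes given below for such summits are not matched for length unless stated. The summits of all lists fell into 80 sites, when those within 200 bp of each other were joined. Of these, 51 were seen in induced lists alone, 18 of them with Grh constructs, 14 with Twi or HA-Twi, 8 with Zld constructs and 11 with more than 1 factor. The other 29 were in a wild-type or 0 µM list, 5 of them in the wild-type anti-Grh list alone, and 16 of the 80 were in 1 list only.

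**Figure D3:**
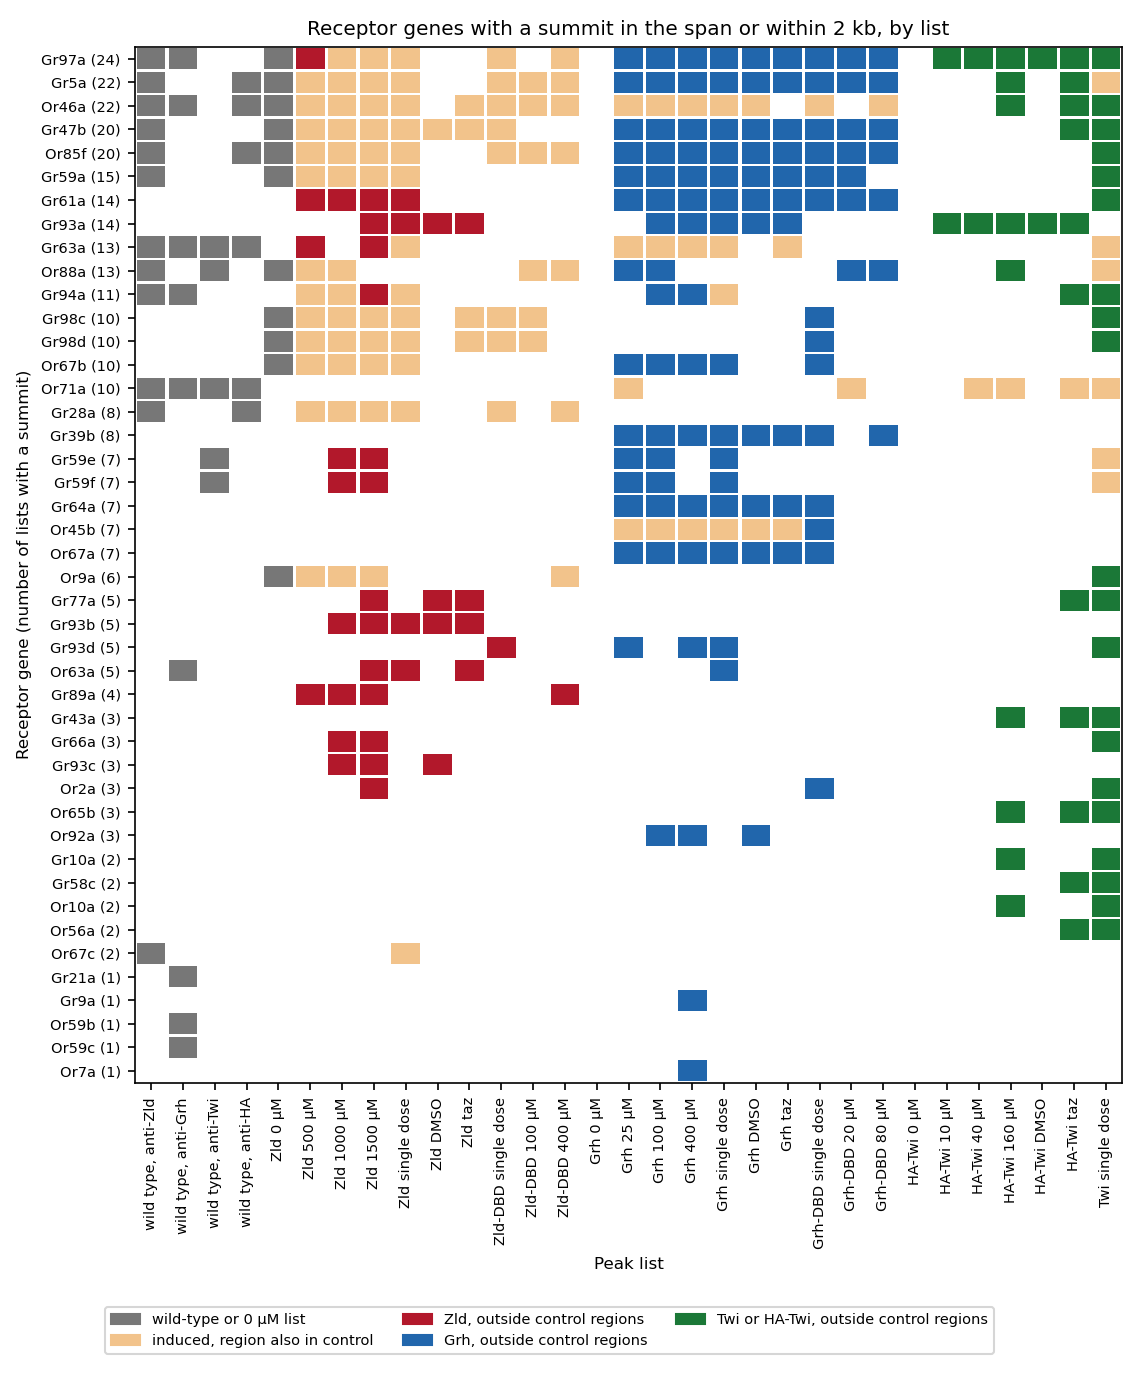
The 44 receptor genes with a summit (rows, with the number of lists in brackets) by the 31 peak lists (columns). Grey cells are wild-type and 0 µM lists, orange cells induced lists in which every region also overlapped a control list, and red, blue and green cells Zld, Grh and Twi or HA-Twi lists with a summit outside the controls; Gr97a fills 24 lists, and 5 genes fill 1 list each.

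Gr97a, Gr5a, Or46a, Gr47b and Or85f were the receptor genes in 20 or more lists. Gr97a, with 24, has Tsp97E, a tetraspanin gene, and CG5521 in its window, and its summits stood at both neighbours. In the HA-Twi lists its fold was 5.3 at 10 µM, 5.53 at 40 µM, 5.85 at 160 µM, 5.16 with DMSO and 5.27 with taz, all at a site inside CG5521, 1529 to 1546 bp from Gr97a. Gr97a was thus in all 5 induced HA-Twi lists, at the same site. Gr5a, the trehalose receptor, was in 22 lists, with every summit in or next to Tre1, a receptor gene of germ cell migration that neighbours it. Or46a, a receptor for phenolic odours, was also in 22 lists, 20 of them through a site in CG18011, and Or85f, which responds to odours of parasitoid wasps, was in 20 through sites around the ribosomal protein gene RpL34b and CG34117.

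With the Zld construct, the gustatory genes of the Gr93 cluster led. The single-dose list held 17 receptor genes (14.3%, interval 8.55 to 21.9, against 54.5% of all genes), and 4 of them had a summit outside the controls (7.38% of all genes had). Gr93a, which is required for the taste of caffeine, had the highest fold of the 4, at 5.56 (percentile 95.5 of the list's summits), 846 bp from the gene. Gr93b followed at 5.32 (percentile 94.9), 1088 bp away, then the larval receptor gene Or63a at 4.14 (87.2), 209 bp away, and the sugar receptor gene Gr61a at 1.83 (13.4), inside the span. The leading summits were thus near the top of the Zld list, and that at Gr61a was weak. The other 13 genes, Gr98c and Gr98d beside the kinesin gene Klp98A among them, were reached only through regions also present in wild-type or 0 µM cells; the Klp98A site had a fold of 5.24 in the single-dose list and 5.39 at 0 µM.

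With the Grh construct, Gr47b and Or67a led. The single-dose list held 19 of them (16%, interval 9.9 to 23.8, against 62.9% of all genes), 15 with a summit outside the controls (against 50.5%). At Gr47b on 2R the fold was 25.2 (percentile 97.2), at a summit 1381 bp from the gene and 1924 bp from the next coding gene, CG13204. At Or67a on 3L, an antennal odorant receptor gene, it was 16.1 (percentile 93.2), 126 bp from the gene and 3397 bp from CG33700. Both summits are far from another coding gene and rank high in their list. Gr61a (7.31), Gr39b (7.22), Gr5a (7.15), Or85f (6.99), Gr64a (6.69), Gr59a (5.63), Gr97a (4.32) and Gr59e (3.51) followed, at percentiles from 31.2 to 73, and each of these lay inside another gene or within 230 bp of one.

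Or67a was bound in Grh lists only. Its fold was 8.04 at 25 µM, 9.32 at 100 µM and 10.1 at 400 µM, 8.64 with DMSO, 7.3 with taz and 2.05 in the single-dose Grh-DBD list. Neither the 0 µM nor any wild-type list had a summit there, and the other Grh-DBD lists, at 20 and 80 µM, had none. Gr47b gave 4.31, 8.15 and 10.9 at the 3 doses, 8.72 with DMSO and 7.13 with taz, and 3.19, 2.59 and 2.16 in the Grh-DBD lists. The Grh-DBD summits of Gr47b were at the sites next to ix and san, on the other side of the gene, and the site behind the fold of 25.2 was in no Grh-DBD list. The wild-type anti-Zld list also had a summit at that site (fold 2.28), as did 5 lists of Zld constructs.

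Or45b, on 2R, shows how the rule on controls acts on a wide region. Its fold in the single-dose Grh list was 14.1, and it was in 7 Grh lists, yet it counted as outside the controls in the single-dose Grh-DBD list alone (fold 2.2). The Grh region there ran from 9549164 to 9558878 (dm6), 9715 bp with 11 summits, and the 0 µM list held regions of 2754 and 799 bp under another part of it. The last summit of the 0 µM regions was at 9556606 and the summit counted for Or45b at 9557957.

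With the Twi construct, Gr43a and Or56a led. The Twi list, the longest of the 31, held 26 (21.8%, interval 14.8 to 30.4, against 67.4% of all genes), 20 of them with a summit outside the wild-type anti-Twi regions (against 57.7%). Gr43a, the fructose receptor, led with a fold of 7.66 (percentile 97.8), 148 bp from the gene and 237 bp from the glyoxalase gene Glo1. Or56a, the receptor for the mould odour geosmin, followed with 7.16 (percentile 96.8) at 1420 bp, and its nearest other coding gene, Obp56g, was 15443 bp away. Both were also in the HA-Twi list with taz, at 5.37 and 2.78, and in no Zld, Grh or wild-type list. Gr94a (6.14, inside Ctns), Gr97a (5.82), Gr77a (5.69, in its span and inside CG13252), Gr10a and Or10a (4.78, a shared summit), Or46a (4.6), Or65b (4.28) and Gr58c (3.54) completed the 10.

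HA-Twi at 40 µM held 3 receptor genes (2.52%, interval 0.523 to 7.19, against 16% of all genes), Gr97a (fold 5.53, percentile 94.9), Or71a (4.3) and Gr93a (3.29, percentile 73.9). Outside the controls were 2 of them, Gr97a and Gr93a (against 13.6%). The list is smaller than the Twi list at the same copper dose, with 3862 regions against 12106, and Or71a and Gr97a were in both. The anti-Twi list had a summit for Twi near Gr93a as well, but 3.524 kb from the low end of the gene and just beyond the window of 2 kb.

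At the Gr93 cluster on 3R (21832503 to 21846659, dm6) Zld, Grh, Twi and HA-Twi all had summits away from other genes. It holds Gr93a and, after a wide gap, Gr93b, Gr93c and Gr93d, with no coding gene of another kind in between. Zld summits stood towards both ends of the gap, at 2.33 to 2.36 kb and at 8.26 to 9.62 kb from the low end of Gr93a. The first of these was in the single-dose, 1500 µM, DMSO and taz lists, with folds of 5.56, 4.72, 6.78 and 3.6, and the second group also in the list at 1000 µM. In the gap, Grh summits stood in the middle, from 3.65 to 6.78 kb, beyond the 2 kb windows of the genes, and the highest of them, at 5.098 kb in the single-dose list, had a fold of 39.1. Gr93a and Gr93d were counted in Grh lists through other summits outside the cluster, at -1.48 to -1.13 kb for Gr93a, with folds of up to 5.57, and at 15.1 and 16.0 kb for Gr93d, with folds from 2.06 to 2.95. HA-Twi and Twi summits stood at 3.43 to 3.52 kb, in all 6 induced lists of these constructs.

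No wild-type list had a summit between Gr93a and Gr93b. The Zld list at 0 µM had none there either, and the Grh list at 0 µM had 1, at 5.13 kb with a fold of 3.43. Of the 3 Grh-DBD lists, the single-dose list had a summit in the gap, at 5.164 kb with a fold of 3.92. No Zld-DBD list had one there. About 2.9 kb below Gr93a a further site was called in wild type with anti-Zld (fold 3.95) and in lists of all the factors, the Zld list at 0 µM (1.84) included, and it lies beyond the window.

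**Figure D4:**
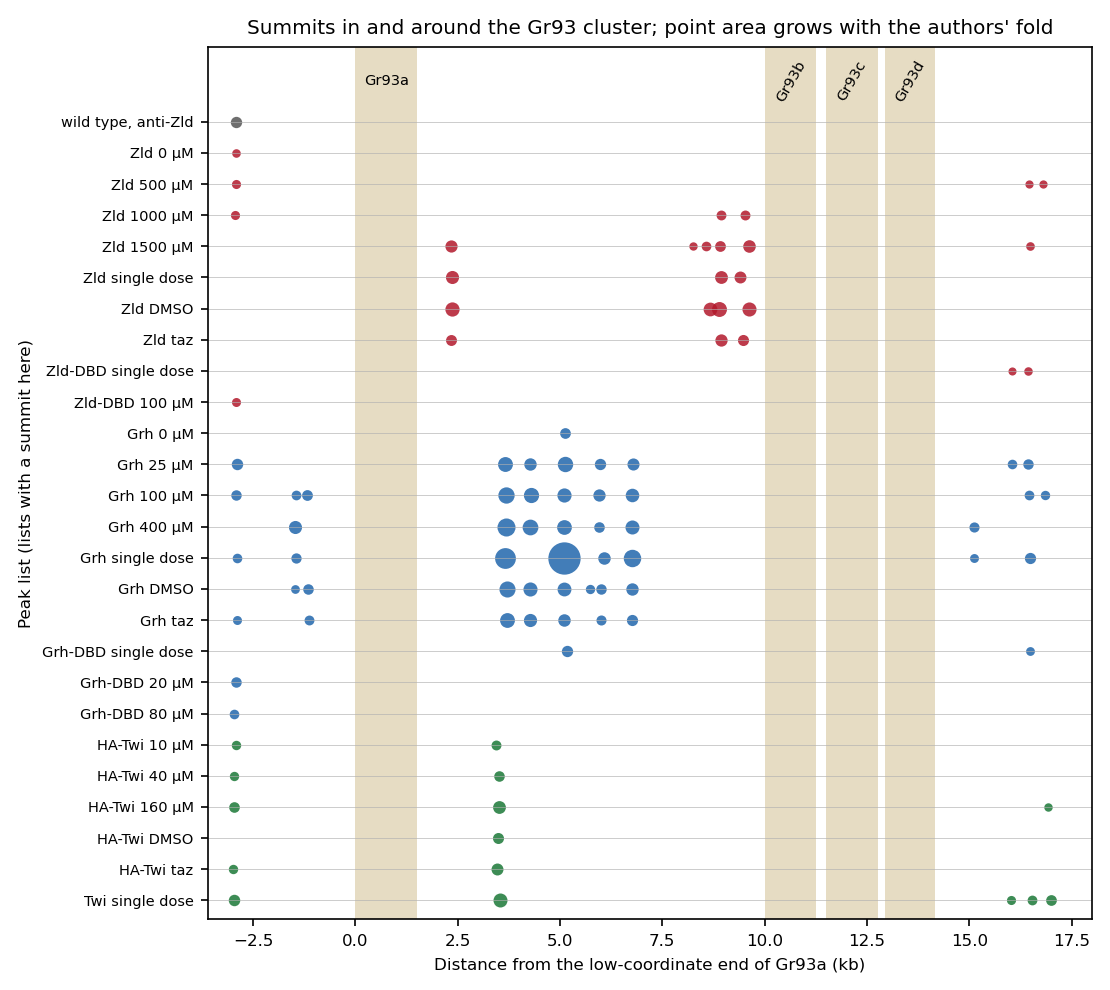
Position of each summit (x axis, kb from the low-coordinate end of Gr93a) in the 26 peak lists with a summit there (y axis); shaded bands are the gene spans. Point area grows with the authors' fold, which can be compared along a row and not between rows, and colours mark the factor (red Zld, blue Grh, green Twi and HA-Twi, grey wild type); between Gr93a and Gr93b, Zld summits stand at 2.33 to 2.36 and 8.26 to 9.62 kb, Grh summits from 3.65 to 6.78 kb, and those of Twi and HA-Twi at 3.43 to 3.52 kb, and further summits lie outside the cluster on both sides.

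The copper series show how many receptor genes were reached as the construct was induced. With Zld the number was 11 at 0 µM (9.24%, against 53.4% of all genes), 16 at 500 µM (13.4%, against 61.2%), 20 at 1000 µM (16.8%, against 62.8%) and 24 at 1500 µM (20.2%, against 65.3%). Outside the controls it was 4 (3.36%, against 12%), 7 (5.88%, against 13.7%) and 13 (10.9%, against 20.8%) at the 3 induced doses. Both the receptor count and the share of all genes were thus higher at each higher dose. Within the series, the 4 genes seen at 1500 µM alone were Or63a, Gr77a, Gr93a and Or2a. Outside the series, Or63a and Gr93a were also in the single-dose list at 1000 µM. Gr77a and Gr93a were in the DMSO list at that dose. The 10 seen at every dose, 0 µM included, were Or46a, Gr47b, Gr59a, Or67b, Or85f, Gr97a, Gr98c, Gr98d, Gr5a and Or9a. In 2 or more induced doses and not at 0 µM were 10 genes, led at 1500 µM by Gr93b and Gr93c, which share a summit (fold 5.09), Gr89a, a gene of bitter-sensing neurons (3.11), and Gr59e and Gr59f, which share one at AIMP3 (2.87).

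With Grh no receptor gene had a summit at 0 µM (an upper bound of 3.05%, against 8.61% of all genes). At 25 µM there were 18 (15.1%, against 58.1%), at 100 µM 19 (16%, against 64.4%) and at 400 µM 19 (against 60.8%). The number outside the controls was 14 (against 48.5%), 16 (against 55.3%) and 16 (against 53%). The Grh count was therefore near its highest level at the lowest induced dose. At all 3 doses were 13 genes, among them Or67a, Gr47b, Gr39b, Gr64a, Or45b, Gr61a and Gr5a. At 400 µM alone were Or7a, a receptor for leaf aldehydes (fold 4.94), and Gr9a (5.15). At 400 µM the folds of those called at 2 or more doses included Gr47b (10.9), Or67a (10.1), Or67b (8.12), Or45b (8.03) and Gr39b (7.05).

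With HA-Twi the number was 0 at 0 µM (0.51% of all genes had a summit), 2 at 10 µM (1.68%, against 11.6%), 3 at 40 µM and 10 at 160 µM (8.4%, interval 4.1 to 14.9, against 24.4%). Outside the controls were 2 at 10 µM (against 8.81%) and 9 at 160 µM (7.56%, against 21.4%). Within the series, Gr93a and Gr97a were called at all 3 induced doses and Or71a at 40 and 160 µM. At 160 µM alone were 7 genes, Gr43a, Or46a, Or65b, Or88a, Gr5a, Gr10a and Or10a. Of these, Gr43a, Or46a, Or65b and Gr5a were also in the HA-Twi list at 40 µM with taz. The fold of Gr93a was 2.78, 3.29 and 5.3 over the 3 doses. Of the 10 genes at 160 µM, 9 were also in the Twi list (90%, against 99% for all genes), and the exception was Gr93a.

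**Figure D5:**
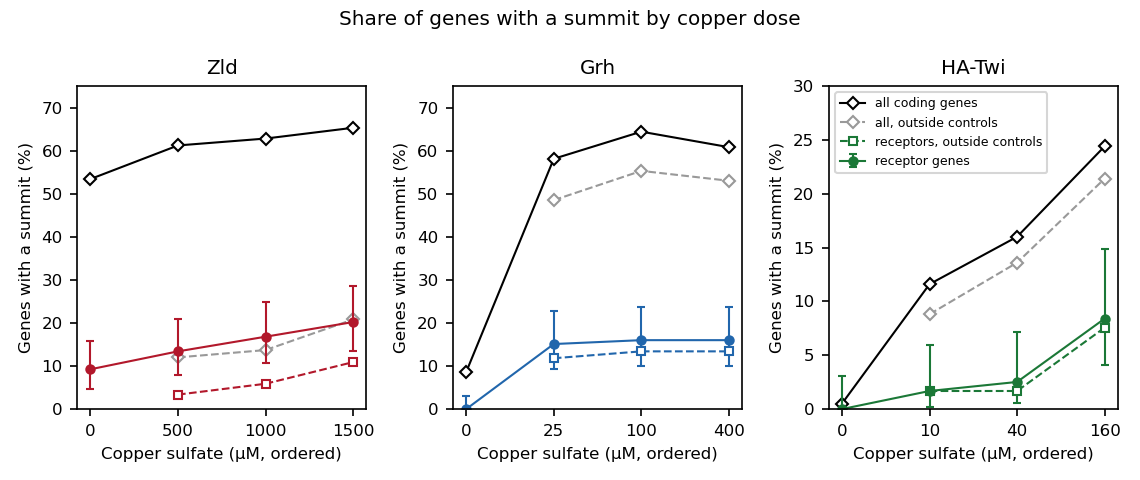
Percentage of genes with a summit (y axis, 0 to 30% for HA-Twi and 0 to 75% for the others) at each copper dose (x axis, doses in order and not to scale). Filled circles are the 119 receptor genes with exact 95% intervals, open squares receptor genes outside the controls, and open diamonds all coding genes (black) and all coding genes outside the controls (grey); the receptor share reaches 20.2% for Zld, 16% for Grh and 8.4% for HA-Twi.

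The DNA-binding domains reached fewer receptor genes than the full-length factors in most lists. Single-dose Zld-DBD (100 µM) held 9 (7.56%, against 12% of all genes), and the domain series 6 at 100 µM (5.04%, against 30.8%) and 8 at 400 µM (6.72%, against 40.1%). Outside the controls there were 1, 0 and 1 of them (against 1.42%, 1.36% and 3.19% of all genes), Gr93d in the single-dose list and Gr89a at 400 µM. Of all coding genes under 2 kb the shares were 0.399%, 0.368% and 1.2%, the first of them below the 0.84% of receptor genes. That 0.84% is 1 gene and covers receptor genes of every length. Single-dose Grh-DBD (20 µM) held 15 (12.6%, against 51.7%), and the domain series 8 at 20 µM (6.72%, against 54.3%) and 8 at 80 µM (against 44.1%). Outside the controls there were 14, 7 and 7 (against 42%, 44% and 35%). Copper doses of the domains and full-length constructs differ, so their counts are set side by side only. Of the 19 genes in the single-dose Grh list, 12 were in the single-dose Grh-DBD list (63.2%, against 76.8% for all genes), Or67a (fold 2.05), Gr39b (3.89), Gr64a (1.94) and Gr61a (2.73) among them.

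The lists with DMSO and taz differed most for HA-Twi. With DMSO the HA-Twi list held 2 receptor genes (1.68%, against 10.1% of all genes) and with taz 12 (10.1%, interval 5.32 to 17, against 17.4%). Outside the controls there were 2 (1.68%, against 8.84%) and 11 (9.24%, against 16.2%). Of all coding genes under 2 kb, 3.45% and 7.69% had such a summit. The receptor share, which covers receptor genes of every length, was below theirs with DMSO and above it with taz. The 10 genes in the taz list alone were Gr43a, Or46a, Gr47b, Or56a, Gr58c, Or65b, Or71a, Gr77a, Gr94a and Gr5a, and all 10 were also in the Twi list without taz, as were 98.6% of all coding genes of the HA-Twi list with taz. With no spread between libraries, this difference was not tested.

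For Zld the DMSO list held 5 receptor genes (4.2%, against 10.7%) and the taz list 8 (6.72%, against 25.4%), with 4 in both (80% and 50%, against 65.1% and 27.4% for all genes). Outside the controls each held 4 (3.36%, against 6.72% and 5.01%). Of all coding genes under 2 kb, 3.05% and 2.03% had such a summit, below the receptor share. That receptor share covers receptor genes of every length and rests on 4 genes in each list. The genes added with taz were Or46a, Or63a, Gr98c and Gr98d. For Grh the numbers were 13 (10.9%, against 54.6%) and 12 (10.1%, against 52.6%), with 11 in both (84.6% and 91.7%, against 92.3% and 95.7%), and outside the controls 11 and 10 (against 46.5% and 45.2%). The receptor genes of the Grh lists were thus nearly the same with DMSO and taz, as the 11 shared genes show.

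How far such counts repeat can be read only from lists that match in construct, copper dose and antibody but come from separately titled experiments. Single-dose Grh and Grh at 100 µM of the series shared 17 genes, 89.5% of each list (96.8% and 94.6% for all coding genes), and single-dose Grh and Grh with DMSO shared 12, which is 63.2% of the first and 92.3% of the second (83.1% and 95.8%). Single-dose Zld and Zld at 1000 µM shared 13 (76.5% and 65%, against 96.2% and 83.4% for all genes). Single-dose Zld and Zld with DMSO shared Gr47b, Gr93a and Gr93b (17.6% and 60%, against 16.7% and 85%), and Zld at 1000 µM and Zld with DMSO shared Gr47b, Gr93b and Gr93c (15% and 60%, against 15.1% and 88.8%). HA-Twi at 40 µM and with DMSO shared Gr93a and Gr97a (66.7% and 100.0%, against 57.5% and 91%). The 2 Zld-DBD lists at 100 µM shared 5 (55.6% and 83.3%, against 81.5% and 31.7%) and the 2 Grh-DBD lists at 20 µM shared 6 (40% and 75%, against 91% and 86.7%). The Grh repeats shared 63.2% or more of either list, and the smallest share of a list found in its repeat was the 15% of Zld at 1000 µM in Zld with DMSO. Differences of a few genes between conditions are therefore no larger than those between such repeats.

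Receptors of known function were among both the bound and the unbound genes. Of the sugar receptors, Gr5a was in 22 lists, Gr61a in 14, Gr64a in 7 and Gr43a in 3, while Gr64b to Gr64f, in the same cluster as Gr64a, were in none. The summits of Gr64a were called in Grh lists only, with folds from 1.94 to 6.69, and stood inside CG11594, a neighbour of Gr64a. Gr61a had a summit outside the controls in each of its 14 lists. Its highest fold in a list was 2.12 to 7.31 with Grh constructs, 1.64 to 1.86 with Zld and 2.07 with Twi. Its summits stood at JMJD5 or CG13887 or, in 9 lists, inside the Gr61a span. The folds inside the span were 7.31 in the single-dose Grh list and 1.64 to 2.7 in the others.

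Of the carbon dioxide receptor genes, Gr63a was in 13 lists and Gr21a in the wild-type anti-Grh list alone (fold 1.89). Of the bitter and courtship receptors, Gr66a was in 3 lists (folds 1.8 to 2.68, all next to Sbp2), and Gr32a, Gr33a, Gr68a and Gr28b were in none. Of the odorant receptors, Or22a and Or42b, which detect food odours, and the pheromone receptors Or47b and Or67d were in none. Or88a, another receptor for fly odours, was in 13, all through a site 173 to 288 bp from CG12402. Or56a was in 2. Of the receptors listed here by role, Or56a was thus the one with summits away from other genes. Gr93a, Gr89a and Or7a, whose roles are given above, also had such summits but were not in this listing.

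Other chemosensory genes were counted for comparison. The ionotropic receptors (Ir), a separate channel family of olfaction and taste, had a summit in any list in 23 of 60 cases (38.3%), near the 37% of the Or and Gr genes. In the single-dose lists they numbered 9 for Zld (15%, against 54.5% of all genes), 13 for Grh (21.7%, against 62.9%) and 18 for Twi (30%, against 67.4%). The odorant-binding protein genes (Obp), short secreted carriers with a median span of 788 bp, had one in 32 of 51 cases (62.7%), and the pickpocket channels (ppk), several of which detect water or pheromones, in 22 of 29 (75.9%). Over all coding genes the share was 79.7%. The co-receptor gene Orco had none in any list. Snmp1, a membrane protein gene of pheromone sensing, was in 10 lists and Snmp2 in 15.

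Genes that regulate receptor choice were counted as well. Of 12 such genes, 9 had a summit in their span in at least 1 list (75%, against 49.9% of all coding genes). Coding genes over 5 kb had one in 82.7% of cases, but the regulators vvl (4784 bp), Xbp1 (2206 bp), ato (1223 bp) and amos (786 bp) are shorter. The genes acj6, ato and amos had none in their window in any list. In the single-dose Grh list the highest fold was 79.5 at the POU factor gene vvl, 37.3 at dac and 23.2 at the POU factor gene pdm3. Outside the controls that list held 5 of the 12 genes (41.7%, against 50.5% of all coding genes). Both dac and pdm3 were among the 5, but vvl was not. The regulators are long as a set, with a median span of 14041 bp, and their counts are set beside those of the short receptor genes without a test. In wild-type cells 7 of the 12 had a summit as well (58.3%, against 54.9% of all coding genes).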

How the data were processed

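Per the submitters' processing notes, Bowtie2 2.4.4, MACS2 2.2, deepTools 3.5.1 and the dm6 build were used; the role and settings of each are not given in the sources used here. The deposited peak lists give each region's fold over background, a ratio, and the −log10 of its p-value and q-value as the authors' caller wrote them. They hold no read counts, so depth is unknown. Each list belongs to a pair of libraries by the labels.

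Summits (region start plus offset; 2 were moved to the region's last base) were matched to gene spans of RefSeq's Release 6 table, the same assembly, with 2000 bp on both sides. Regions sharing 1 bp or more with a control region were not counted as outside the controls. Percentiles rank a fold among the summits of its own list. Named genes were up to 10 per factor by fold outside the controls, those in 20 or more lists, those in all 4 wild-type lists, receptors of known role, and up to 5 per dose series called at 2 or more induced doses and not at 0 µM. Others are named where a count is 5 or fewer or a list of genes is given in full. The genes and lists were chosen with earlier results of these data known. Matching was checked on simulated summits. Python 3.11.15, pandas 2.3.3, numpy 2.4.6, scipy 1.17.1 and matplotlib 3.10.9 were used.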

Additional observations from a re-analysis of the deposited data

How the results depend on the processing

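The share of receptor genes was below that of all coding genes in 61 of 61 values, 51 of them alternatives, of which 30 moved a count by more than 1.5 times. The all-gene shares in these values are not matched for length. With the gene span alone, 1 gene each remained for Zld, Grh and Twi and 0 for HA-Twi at 40 µM, and the counts outside the controls were also 1, 1, 1 and 0. With 5000 bp to both sides the counts were 40, 41, 53 and 10, and outside the controls 10, 34, 43 and 6. With the upper 50% of regions by fold they were 10 for Zld, 10 for Grh and 16 for Twi, and outside the controls 8 for Grh and 12 for Twi. With each summit given only to its nearest coding gene they were 8, 6, 9 and 1, and outside the controls 5 with Grh, 8 with Twi and 1 with HA-Twi. Removing the regions of all 4 wild-type lists left 9 genes outside the controls for Grh. Leaving out the wild-type anti-Grh list, an alternative chosen after seeing the data, left 2 genes with a summit in the span and 41 with a summit in any list, and gave 18 outside the controls for Grh. These alternatives change the window or the regions by construction. No paired analysis was possible because each list pools its libraries. For the same reason no replicate could be left out. Because the files give no depth, a gene without a summit had none called at a depth that is not known, and its binding cannot be said to be absent. Lists differ in length from 77 to 12106 regions, so counts of different lists are not levels of binding.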
